A study of Homo sapiens with 12 samples.

Results

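OCT4 (gene POU5F1), the SALL zinc finger proteins and the MYC proteins are transcription factors of pluripotent and germ cells. The genes described here are POU5F1, SALL1, SALL3, SALL4, MYC, MYCN and MYCL, and their members are all peaks of SOX2 and of SOX17 whose nearest gene, in the annotation of the deposited lists, is 1 of these 7. There were 32 such peaks of 35302 in all: 19 of 17795 SOX2 peaks and 13 of 17507 SOX17 peaks.

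SOX2 was immunoprecipitated from 2102EP, a cell line labelled as embryonal carcinoma-like, and SOX17 from TCam-2, a cell line labelled as seminoma-like, each from a human testicular germ cell tumour. The labels name no genetic change or drug treatment. They give 4 groups of 3 libraries, the ChIP and the 2% input of each line, and each line is a single cultured line. Each factor was profiled in 1 line, so factor, antibody and cell line change together and cannot be told apart. The data used here are 1 merged peak list per factor with no value for a single library, so depth is unknown, no value below has a replicate error, and no test was made. The lists hold no expression values, so the cell type labels could not be checked against marker genes.

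OCT4 binds DNA next to a SOX protein in pluripotent cells, and the pair of OCT4 and SOX2 is a known activator of many pluripotency genes, POU5F1 among them. SOX17 takes the SOX role in human primordial germ cells and seminoma, and the SOX and OCT sites it uses with OCT4 lie closer together, with no base between them (the compressed form), where SOX2 and OCT4 use sites with 1 base between them (the canonical form). SALL4 is a partner of OCT4 and an embryonic stem cell and germ cell tumour marker, SALL1 and SALL3 are its relatives, and MYC, MYCN and MYCL drive growth and are used as reprogramming factors.

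The DNA under 8 of these peaks is printed here. They are the single POU5F1 peak, the 3 SALL4 peaks, 2 regions of SALL1 and the pair of peaks inside SALL3. Those of SALL1 are the stronger of the 2 regions shared by both lists and the strongest SOX17 peak. The strongest SOX2 peak of SALL1, at -30.1 kb, is not printed. Each sequence is the plus strand of hg38 over the whole deposited peak, 5′ to 3′. Capitals mark a SOX site (CATTGT or CTTTGT) or an OCT site (ATGCAAAT or ATGCTAAT) on either strand, or a SOX-OCT pair at the canonical or compressed spacing with at most 1 mismatch in each part. The peaks lie at chr6:31172002-31172106 (POU5F1), chr20:51811665-51811793, chr20:51799701-51799812 and chr20:51812992-51813097 (SALL4), chr16:51392386-51392489 and chr16:51084691-51084801 (SALL1), and chr18:78983685-78983793 and chr18:78981695-78981810 (SALL3), in the order in which they are printed.
POU5F1, SOX2 peak: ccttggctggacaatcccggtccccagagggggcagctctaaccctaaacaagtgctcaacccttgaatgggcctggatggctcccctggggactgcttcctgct
SALL4, upstream SOX2 peak: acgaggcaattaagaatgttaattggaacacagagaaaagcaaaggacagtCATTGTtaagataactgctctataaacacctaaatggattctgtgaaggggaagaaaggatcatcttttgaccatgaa
SALL4, intronic SOX2 peak: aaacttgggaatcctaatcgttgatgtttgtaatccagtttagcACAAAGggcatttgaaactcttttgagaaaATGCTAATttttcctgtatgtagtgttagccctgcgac
SALL4, SOX17 peak: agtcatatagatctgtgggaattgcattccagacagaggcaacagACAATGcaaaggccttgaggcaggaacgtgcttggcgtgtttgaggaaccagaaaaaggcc
SALL1, region shared by both lists, SOX2 bounds: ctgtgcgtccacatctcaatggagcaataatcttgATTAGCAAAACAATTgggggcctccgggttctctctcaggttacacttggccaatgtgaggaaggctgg
SALL1, SOX17 peak: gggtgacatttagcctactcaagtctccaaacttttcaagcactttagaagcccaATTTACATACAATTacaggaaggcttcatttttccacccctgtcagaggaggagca
SALL3, region shared by both lists, SOX2 bounds: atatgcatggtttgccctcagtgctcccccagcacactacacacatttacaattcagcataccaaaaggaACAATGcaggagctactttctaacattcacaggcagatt
SALL3, SOX2 peak nearest the start: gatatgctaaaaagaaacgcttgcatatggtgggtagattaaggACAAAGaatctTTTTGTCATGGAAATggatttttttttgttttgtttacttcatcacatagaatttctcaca

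No capitals occur in the POU5F1 peak. Each of the 3 SALL4 peaks holds a SOX site, and the intronic one also an OCT site, on opposite strands and apart from it. The capitals of both SALL1 sequences are SOX-OCT pairs with 1 mismatch in each part, read from the minus strand. No other SALL1 region held such a pair at these spacings, the strongest SOX2 peak at -30.1 kb included. In the shared SALL1 region the pair is AATTGTtTTGCTAAT at the canonical spacing, and in the SALL1 SOX17 peak it is AATTGTATGTAAAT at the compressed spacing.

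SOX2 peaks were assigned to 6 of the 7 genes, all but MYC, where 31.1% of RefSeq genes had one. SOX17 peaks were assigned to 5 of the 7, all but POU5F1 and MYCN, against 32.5% of RefSeq genes. SALL1, SALL3, SALL4 and MYCL had peaks of both lists (4 of 7, against 20.7% of RefSeq genes). POU5F1 and MYCN had SOX2 peaks alone (10.4% of RefSeq genes), and MYC a SOX17 peak alone (11.8%). A gene far from its neighbours can be nearest to peaks over a longer stretch. The stretch between neighbouring protein-coding TSSs ran from 71.64 kb (MYCL) to 2371 kb (MYC), and its part in these shares was not tested. The deposited assignment also uses noncoding genes such as MYCNOS, so a gene can be nearest over less than this stretch. The MYC stretch held 23 SOX2 and 26 SOX17 peaks, of which 0 and 1 were assigned to MYC. For MYCN these were 8 and 14 peaks, with 1 and 0 assigned, and for SALL1 10 and 5, with 8 and 3 assigned. A gene with no assigned peak is not shown to be unbound, since the lists show only what was called and kept by the authors and each peak goes to 1 nearest gene.

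Within its own list each peak has a score, whose scale is not stated. The scale may differ between the lists, so a peak is described here by its score percentile, its rank among all peaks of the same list. The SOX2 peaks of these genes had a median percentile of 64.7 and a median score of 32.8, where all SOX2 peaks had a median score of 24.07, and 12 of 19 were in the upper 50% of the list. The SOX17 peaks had a median percentile of 58.2 and a median score of 30.67, where all SOX17 peaks had 26.67, and 10 of 13 were in the upper 50%.

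By its highest SOX2 peak SALL4 came first (percentile 96.9), followed by SALL1 (91.7), POU5F1 (88.6), SALL3 (83.1), MYCL (70.4) and MYCN (54.7). By the highest SOX17 peak the order was SALL1 (94.1), SALL4 (82.2), MYCL (76.4), SALL3 (65.5) and MYC (50). No replicate spread is at hand to say which neighbours in these orders differ. The highest assigned peaks of the SALL genes and POU5F1 thus lay above those of MYCN and MYCL in the SOX2 list, while in the SOX17 list MYCL lay above SALL3. A highest value is taken over unequal numbers of SOX2 peaks, 8 for SALL1 and 5 for SALL3 against 1 for MYCN. The median SOX2 scores of SALL1 (22.55) and SALL3 (21.87) lay below those of MYCN (26.27) and MYCL (35.4), while POU5F1 (75.63) and SALL4 (120.6) lay above. Within 100 kb, whatever the nearest gene, MYC (percentile 95), MYCN (94.8) and MYCL (96.3) lay above all but SALL4 (96.9) for SOX2.

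**Figure D1:**
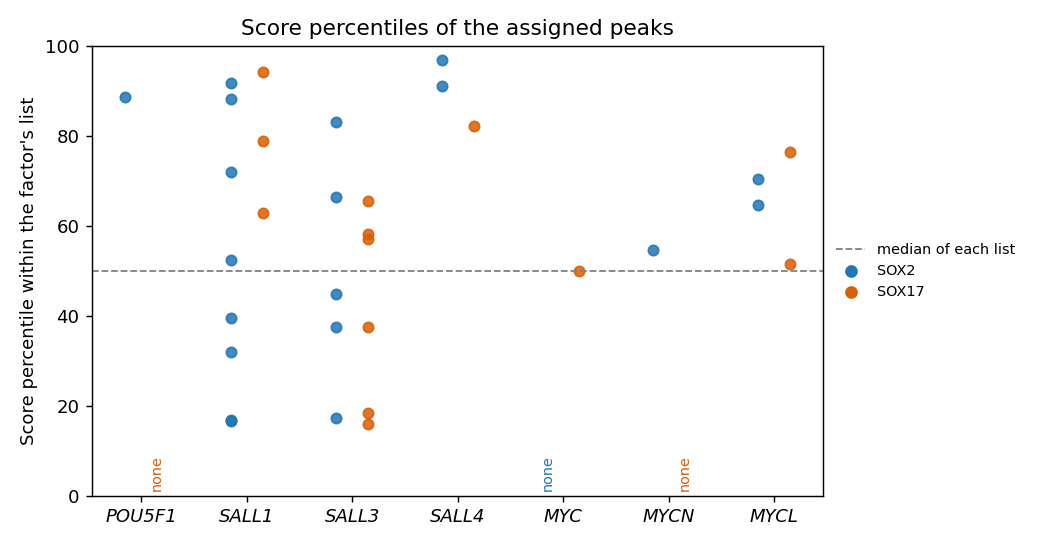
Score percentile of every assigned peak within its own list (vertical axis, 0 to 100), by gene, with SOX2 peaks in blue and SOX17 peaks in orange and the dashed line at the median of each list. SALL1 and SALL3 have peaks over a wide range, SALL4 has its 3 peaks between percentiles 82.2 and 96.9, and POU5F1 and MYCN have no SOX17 peak and MYC no SOX2 peak.

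POU5F1 encodes OCT4, the POU factor without which pluripotency is lost. Its only assigned peak was a SOX2 peak at -1.36 kb from the transcription start site (TSS; negative distances are upstream), with a score of 75.63 and rank 2037 of the SOX2 list. The deposited annotation calls it intergenic, while in GENCODE 44 it lies in an intron of a longer POU5F1 transcript. It was GC-rich, with 61.0% G or C in the called peak, against a median of 43.0% for all SOX2 peaks. The one SOX site near it lay 54 to 59 bases before the centre and outside the called peak, and no OCT site with at most 1 mismatch lay within 100 bp. The nearest SOX17 peak was 25.8 kb away and at percentile 14.7. POU5F1 has near-identical pseudogene copies in the genome, and the sources used here do not state how reads with several map positions were treated.

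SALL4 encodes a zinc finger protein that keeps stem cells undifferentiated and recruits the NuRD repressor complex. It had the highest peak of the 7 genes in the SOX2 list, at -9.21 kb, with a score of 153.13 and rank 544. A SOX2 peak in intron 1, at +2.77 kb, had a score of 88.1 and percentile 91.0. The single SOX17 peak at -10.5 kb had a score of 53.0 and percentile 82.2, and it lay in an L2a repeat 1315 bp upstream of the stronger SOX2 peak without overlapping it. Both factors were thus called upstream of SALL4 but at different places, and SOX2 alone in its first intron. Scores of SOX17 peaks ran high on chromosome 20, with a median of 36.3 against 26.3 on the other chromosomes, and among the SOX17 peaks of chromosome 20 alone the SALL4 peak was at percentile 70.8; the part of the chromosome in its rank was not tested.

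SALL1 encodes a developmental zinc finger repressor of kidney and limb, also expressed in embryonic stem cells. It had 8 SOX2 peaks, and 1.16% of the genes with a SOX2 peak had at least as many. They lay between -271 kb and +61.1 kb, none of them within 30 kb of the TSS, and 7 of the 8 were annotated in introns of a noncoding transcript of MIR548AI. Their percentiles ran from 16.5 to 91.7, with the highest at -30.1 kb (chr16:51181271-51181431, score 93.0) and the second at -241 kb (score 74.37). The 3 SOX17 peaks lay at +65.9 kb (score 90.67), -241 kb (score 48) and -271 kb (score 33.67). The first of these was the highest SOX17 peak of all 7 genes, lay in a DNA transposon (MamRep434) and was 4.72 kb from a weak SOX2 peak at percentile 16.8.

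Both other SOX17 peaks of SALL1 overlapped SOX2 peaks. At -241 kb the peaks had 96 bp in common and centres 9 bp apart, at percentiles 88.2 for SOX2 and 78.9 for SOX17. At -271 kb they had 94 bp in common, at percentiles 31.9 and 62.9, in a retroviral THE1A internal sequence with a SOX site. The strongest SALL1 peak of each list, however, was not shared.

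SALL3 encodes another zinc finger protein of this family, and the protein-coding TSSs on either side of it lie 1.82 Mb apart. It had 5 SOX2 peaks at percentiles 17.2 to 83.1 and 6 SOX17 peaks at percentiles 15.9 to 65.5. Among genes with a peak of the list, 2.43% had at least 6 SOX17 peaks. Most lay far upstream, between -406 kb and -78.5 kb. Inside the gene, in intron 1, a SOX2 peak lay at +1.48 kb (percentile 66.3) and a region shared by both lists at +3.46 kb. In the shared region the bounds of the peaks differed by 1 base, with a score of 57.93 for SOX2 (percentile 83.1) and 30.67 for SOX17 (percentile 58.2). It holds 1 SOX site and lies outside annotated repeats.

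MYC encodes the growth-promoting bHLH factor and MYCN and MYCL its relatives. The MYC family had 3 SOX2 and 3 SOX17 peaks, at percentiles 54.7 to 70.4 and 50 to 76.4. MYC itself had 1 peak, of SOX17, at +9.43 kb (chr8:127744797-127744921) with a score of 26.67, which is the median of the list, and at percentile 40.8 among SOX17 peaks of its chromosome. The nearest SOX2 peak was 65.5 kb away. MYCN had 1 SOX2 peak at -1.67 kb (chr2:15938699-15938842) with a score of 26.27, in an exon of the antisense gene MYCNOS in GENCODE 44, with no SOX site within 100 bp of its centre.

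MYCL was the only gene of this family with peaks of both lists. Its SOX2 peaks lay at +3.65 kb in intron 1 (chr1:39898292-39898445, score 38) and at -20.6 kb (score 32.8). Its SOX17 peaks lay at +2.82 kb (chr1:39899138-39899250, score 45.0) and at -22.9 kb (score 27.33). The lists thus put peaks in the same 2 places but not on the same bases: the intragenic pair was 826 bp apart and the upstream pair 2375 bp.

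**Figure D2:**
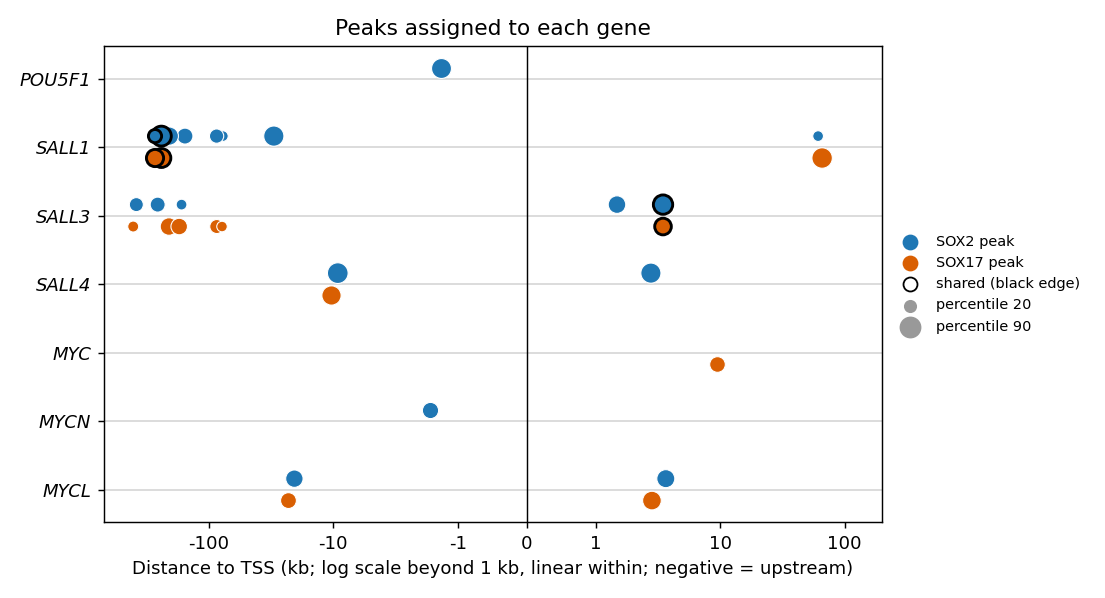
Distance of every assigned peak from the TSS in the deposited annotation (horizontal axis in kb, logarithmic beyond 1 kb), by gene, with SOX2 peaks in blue above and SOX17 peaks in orange below each line, area rising with the score percentile and a black edge for peaks shared by both lists. The shared peaks are at -241 and -271 kb of SALL1 and +3.46 kb of SALL3. The upstream peaks of SALL4 and the peaks of MYCL come in close pairs without overlap, and the intronic SALL4 peak is unpaired.

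Across the 7 genes 3 regions were shared with at least 1 bp in common, all of them at SALL1 and SALL3. They are 3 of 19 SOX2 peaks (15.8%, against 24.9% of all SOX2 peaks) and 3 of 13 SOX17 peaks (23.1%, against 25.3% of all SOX17 peaks), so the shared share was near or below the background. Of the 4 genes with peaks of both lists, SALL4 and MYCL had no shared peak under this rule. With centres within 1000 bp as the rule there were 4 shared regions, and the added one was the intragenic pair of MYCL (826 bp). Close pairs without overlap were more frequent than in the lists as a whole. A peak of the other list lay within 3 kb, not overlapping, for 4 of 19 SOX2 peaks (21.1%, against 3.92% of all) and 3 of 13 SOX17 peaks (23.1%, against 3.76%). These are the pairs at SALL4 and MYCL, and the first SALL3 intron peak with the SOX17 peak of the shared region; the limit of 3 kb was chosen after the distances were seen, so these shares are a description.

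By position, 6 of 19 SOX2 peaks (31.6%) lay within 5 kb of the TSS of their gene, against 12.0% of all SOX2 peaks. They belonged to POU5F1, SALL3, SALL4, MYCN and MYCL. Of the SOX17 peaks 2 of 13 (15.4%, at SALL3 and MYCL) did, against 12.9% of all. No peak of either list was in the promoter class of the deposited annotation, which held 2.56% of SOX2 and 3.32% of SOX17 peaks. Repeats held 3 of 19 SOX2 peaks (15.8%, against 41.4% of all) and 4 of 13 SOX17 peaks (30.8%, against 43.1%). All 7 repeat peaks were at SALL1, SALL3 and SALL4.

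The nearest gene is a convention, so the surroundings of each TSS were described as well, with distances to the TSS in GENCODE 44. Within 10 kb, whatever the nearest gene, 5 of the 7 genes had a SOX2 peak (POU5F1, SALL3, SALL4, MYCN and MYCL), against 13.3% of protein-coding genes, and 3 had a SOX17 peak (SALL3, MYC and MYCL), against 14.5%. Within 100 kb all 7 had peaks of both lists, as 68.9% of protein-coding genes did for SOX2 and 71.5% for SOX17. In this range the lists held 24 SOX2 and 20 SOX17 peaks, of which 12 in each list had another nearest gene. Of those 12, 5 were shared in each list, where 1 of the 12 SOX2 and 1 of the 8 SOX17 peaks assigned to the gene itself were; over the whole lists 24.9% of SOX2 and 25.3% of SOX17 peaks were shared.

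For the MYC family the highest peak within 100 kb had another nearest gene in all 6 combinations of gene and list. Near MYC the 2 SOX2 peaks of this range and 2 of its 3 SOX17 peaks formed shared regions in intron 1 of PVT1, a noncoding RNA gene beside MYC, and their nearest gene was MIR1204. The region at +74.2 kb was at percentile 95 for SOX2 and 98.0 for SOX17, and that at +86.9 kb at 92.9 and 62.9. Within 500 kb of MYC there were 15 SOX2 and 16 SOX17 peaks, 8 of them in each list shared.

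Near MYCN, SOX2 peaks nearest to MYCNOS lay at +17.8 kb (percentile 94.8), +25.2 kb (89.4) and +40.1 kb (82.3), and the last was shared with SOX17 (54.4). The SOX17 peaks nearest to MYCNUT, a noncoding gene upstream of MYCN, lay at -49.2 kb (75.9) and -28.1 kb (27.1). Although MYCN had no assigned SOX17 peak, 3 SOX17 peaks thus lay within 100 kb. Near MYCL a region shared by both lists in an intron of TRIT1, a tRNA modification gene, lay at +23.6 kb, at percentile 96.3 for SOX2 and 63.4 for SOX17. A SOX17 peak nearest to MFSD2A, a lipid transporter gene, was at -78.9 kb (92.5), and a SOX2 peak nearest to LOC101929536 at +97.9 kb (44.6).

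For POU5F1 and the SALL genes the highest peak within 100 kb had another nearest gene in 2 of 8 combinations, both of SOX17. Near POU5F1 a SOX17 peak at +28.3 kb, nearest to PSORS1C2, was at percentile 98.0, above the SOX2 peak of POU5F1 in its own list. The other SOX17 peaks of this range, nearest to CDSN and HCG27, were at percentiles 30.2 and 14.7. The SOX2 peaks nearest to PSORS1C2, C6orf15 and HLA-C were at 24.6, 22.3 and 3.12. Near SALL4 a SOX17 peak nearest to LINC01429, a noncoding gene, lay at -46.1 kb (percentile 94.9), and a shared region nearest to the same gene at -87.1 kb (78.9 for SOX17, 62.2 for SOX2). A SOX2 peak nearest to ATP9A was at +91.8 kb (70.8). All peaks within 100 kb of SALL1 and SALL3 were assigned to these genes.

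Peak density over the whole stretch between the neighbouring protein-coding TSSs of each gene differed between the genes. The lists held 0.576 SOX2 and 0.567 SOX17 peaks per 100 kb over the genome. Around SALL1 there were 1.23 SOX2 peaks per 100 kb (10 peaks) and 0.616 SOX17 peaks (5 peaks), and around SALL4 1.42 of each (6 and 6 peaks). Around SALL3 the density was near that of the genome, at 0.55 and 0.605. MYC had 0.97 and 1.1 per 100 kb (23 and 26 peaks over 2.371 Mb) and MYCN 0.745 and 1.3 (8 and 14 peaks). The stretches of POU5F1 and MYCL were short, with 2 SOX2 and 1 SOX17 peaks in 0.1135 Mb and 2 of each in 0.07164 Mb.

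**Figure D3:**
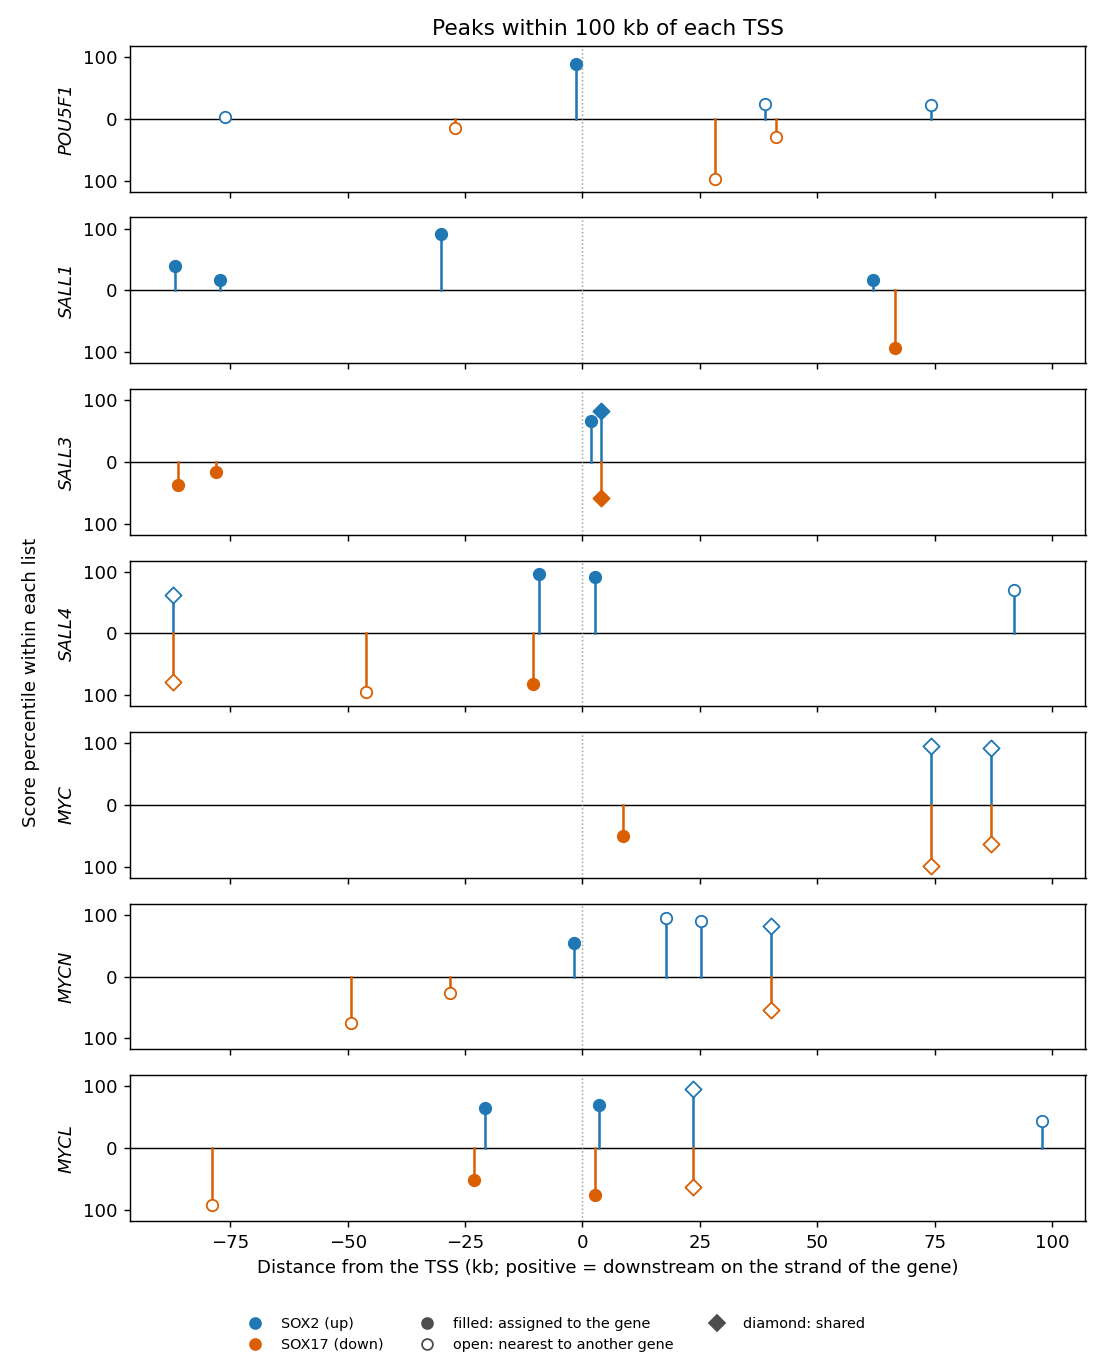
All peaks within 100 kb of the TSS of each gene in GENCODE 44 (horizontal axis in kb, positive downstream), with score percentile upward for SOX2 (blue) and downward for SOX17 (orange), filled where the peak was assigned to the gene, open where another gene was nearest, and as a diamond where shared. The diamonds near MYC (+74.2 and +86.9 kb), MYCN (+40.1 kb) and MYCL (+23.6 kb) are open, and the tallest SOX17 line near POU5F1 is an open circle at +28.3 kb.

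SOX sites (CATTGT or CTTTGT on either strand, within 100 bp of the centre) were present in 15 of 19 SOX2 peaks (78.9%, against 60.5% of all SOX2 peaks) and 8 of 13 SOX17 peaks (61.5%, against 67.1%). Windows 2000 bp away from the peaks held one in 24.5% of cases for SOX2 and 24.8% for SOX17. The SOX2 peaks without a SOX site were those of SALL1 at -30.1, -156 and -241 kb and that of MYCN. An OCT site (ATGCAAAT or ATGCTAAT) with no mismatch lay in 1 SOX2 peak, in intron 1 of SALL4, and in 1 SOX17 peak, at -406 kb of SALL3, where 15.1% of all SOX2 and 11.5% of all SOX17 peaks held one. With at most 1 mismatch, 12 of 19 SOX2 peaks (63.2%, against 57.4% of all) and 9 of 13 SOX17 peaks (69.2%, against 51.8%) held an OCT site. Windows 2000 bp before the centres of all peaks held one in 33% of cases for SOX2 and 32.5% for SOX17. For the peaks of these genes the windows 2000 bp before and after the centre held one in 5 and 9 of 19 for SOX2. For SOX17 they did in 3 and 2 of 13. By family, 12 of 16 SOX2 and 8 of 10 SOX17 peaks of POU5F1 and the SALL genes held one, the POU5F1 peak not among them. In the MYC family 0 of 3 and 1 of 3 did.

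No SOX2 or SOX17 peak of these genes held a composite, an exact SOX site followed after 0 to 10 bases by an OCT site differing in at most 1 base, which 3.37% of all SOX2 and 4.54% of all SOX17 peaks did. At these shares few such peaks would be found among 19 and 13, so the counts of 0 say little. With 1 mismatch allowed in the SOX part as well, the canonical spacing occurred in 3 SOX2 peaks, where 9.68% of all SOX2 peaks have it. They were the shared SALL1 region at -241 kb and the SALL3 peaks at -258 kb (CCTTGTgTTGCTAAT) and +1.48 kb (TTTTGTcATGGAAAT). Among SOX17 peaks it occurred in the same SALL1 region (2.49% of all SOX17 peaks). The compressed spacing occurred in the SOX17 peak of SALL1 at +65.9 kb, where 8.24% of all SOX17 and 0.849% of all SOX2 peaks have it. A match of letters is a description and no sign of binding by OCT4.

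Related genes were described for comparison. Of 15 other POU family genes 5 had a SOX2 and 4 a SOX17 peak, 2 of them both, which is near the 31.1% and 32.5% of RefSeq genes. POU3F4, a neural POU factor, had the highest (SOX2 percentile 92.7), at -849567 bp from its TSS and with no SOX2 peak within 50 kb. POU5F1B, the retrogene copy of POU5F1, had 1 SOX2 peak (71.1). SALL2, the remaining SALL gene, had none in either list. Of 13 genes of the NuRD complex, which SALL proteins recruit, 3 had a SOX2 and 4 a SOX17 peak, again near or below these shares. The highest were HDAC2, a histone deacetylase, at percentile 98.7 for SOX17 and MTA3, a NuRD subunit, at 98.0 for SOX2.

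Of 22 genes of the MYC network, partners, antagonists and neighbouring noncoding genes, 9 had a SOX2 and 8 a SOX17 peak, 6 of them both. These counts include the noncoding genes MYCNOS, MYCNUT, CASC8, CASC11 and PCAT1 near MYC or MYCN, so they do not describe partners and antagonists alone. The peaks of MYCNOS and MYCNUT are those already given for the surroundings of MYCN. MXI1, a MYC antagonist, was at percentile 99.7 for SOX2, MYCNOS at 94.8 and PCAT1, a noncoding gene near MYC, at 92.5 for SOX2, and CASC8, another, at 94.0 for SOX17. MAX, the obligate partner of MYC proteins, had no peak in either list. These shares, 9 of 22 and 8 of 22, stand beside the 31.1% and 32.5% of RefSeq genes.

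Of 34 other pluripotency genes 31 had a SOX2 peak and 27 a SOX17 peak, where 31.1% and 32.5% of RefSeq genes did. This list was chosen with earlier results of these data known, so its shares and medians are a description and no neutral background. All 27 with a SOX17 peak also had a SOX2 peak, and LIN28B, KLF2, GDF3 and DNMT3B had a SOX2 peak alone, as POU5F1 and MYCN did. Over the pluripotency genes with a peak of the list, the highest percentiles had medians of 94.5 for SOX2 and 86.0 for SOX17. The highest peak of SALL4 (96.9) lay above this SOX2 median. Those of SALL1 (91.7), POU5F1 (88.6), SALL3 (83.1), MYCL (70.4) and MYCN (54.7) lay below it. For SOX17 that of SALL1 (94.1) lay above the median, and those of SALL4 (82.2), MYCL (76.4), SALL3 (65.5) and MYC (50) below.

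The pluripotency genes most like each gene were sought by the mean absolute difference of the highest SOX2 and SOX17 percentiles, 2 values per gene, with 0 where a list had no peak. SALL4 was nearest to L1TD1 (difference 1.65) and DPPA4 (2.15), and SALL1 to ESRRB (1.9) and TEAD4 (3.35). MYCL was nearest to STAT3 (2.85) and SOX15 (6.9), and SALL3 to RIF1 (3.9) and KLF5 (8.85). POU5F1 was nearest to LIN28B (3.9) and DNMT3B (4.4). MYCN was nearest to KLF2 (11.7) and LIN28B (20.9), and MYC to genes with no peak at all, such as DPPA3 and FOXD3 (25.0), so no gene of the list had a pattern close to that of MYC.

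**Figure D4:**
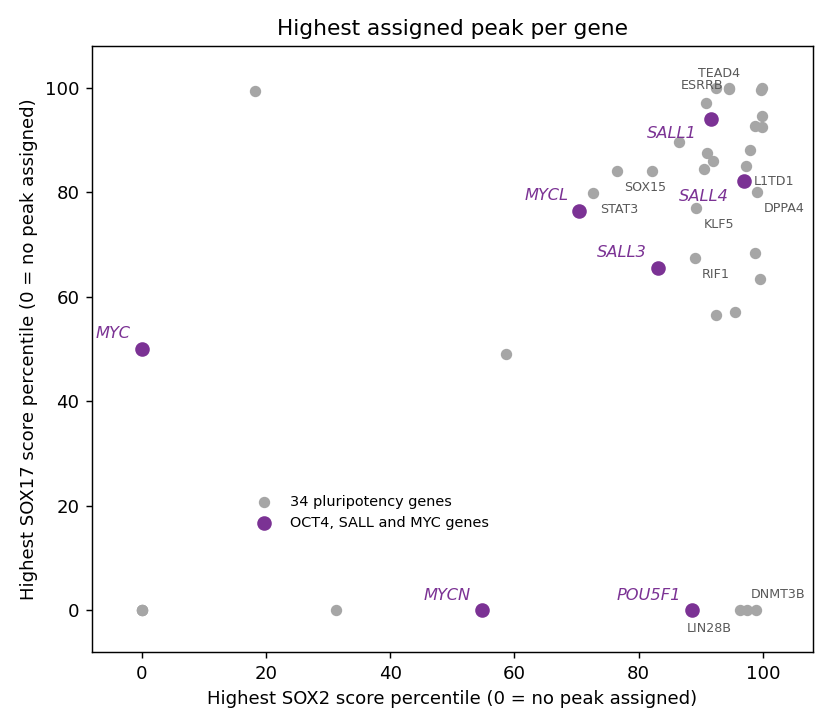
Highest SOX2 (horizontal axis) and SOX17 (vertical axis) score percentile of the peaks assigned to each gene, 0 where none was assigned, for the 7 genes (purple) and the 34 pluripotency genes (grey; genes most like a purple gene are named where the mean difference is under 10). POU5F1 (88.6) lies on the horizontal axis beside LIN28B (96.4) and DNMT3B (97.4), MYCN lies on the same axis at 54.7, apart from them, MYC lies alone on the vertical axis at 50, and the SALL genes and MYCL lie among the grey points.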

How the data were processed

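The authors deposited 1 merged HOMER peak list per factor on hg38, per the file headers, with positions, a score whose scale they do not state, the distance to the TSS in bp, the nearest gene and the repeat. Per the submitters' processing notes HOMER was used, and per the series' design text reads were mapped with CLC Genomics Workbench 12. The HOMER version, the calling settings and the use of input are not stated in those sources. Every peak name ends in 3, without a stated meaning, and 2 lines of each list had been emptied. The lists hold 0 value columns for single libraries.

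The members and all gene lists, limits and comparisons were chosen with earlier results of these data known. Genes were matched to 29978 RefSeq genes. The score percentile is the rank of a peak within its list. Multiplied by 3, scores were whole within 0.02 in 8.68% of the SOX2 list and 100% of the SOX17 list, and scores were not compared between lists. Peaks overlapping by 1 bp or more were called shared. Sites were searched on both strands in 201 bp around each centre and around points 2000 bp to either side. Deposited distances lay within 1000 bp of that to a GENCODE 44 TSS of the same gene for 97.0% of peaks in each list, among the 15779 (SOX2) and 15599 (SOX17) with a gene in GENCODE. Overlap and site search were tested on simulated data. The named genes were all 7 genes with every peak, their nearest pluripotency genes, the nearest genes of peaks within 100 kb, and genes of the other lists at percentile 90 or higher; POU5F1B, SALL2, MAX and the 4 pluripotency genes with a SOX2 peak alone were named after their values were seen. Python 3.11.15, pandas 2.3.3, pysam 0.24.0 and matplotlib 3.10.9 were used.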

Additional observations from a re-analysis of the deposited data

How the results depend on the processing

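The number of peaks given to the 7 genes depends on the assignment. The 19 SOX2 peaks became 9 within 50 kb of the TSS, 12 in the upper 50% of scores and 70 within 500 kb whatever the nearest gene. The 13 SOX17 peaks became 5 within 50 kb of the TSS, 20 within 100 kb whatever the nearest gene, and 78 within 500 kb. The range of 500 kb and the count outside repeats (16 and 9) were chosen after seeing the data. Composite sites rose from 0 SOX2 and 0 SOX17 peaks to 4 and 1 with 2 OCT mismatches, where 13.0% of all SOX2 and 15.1% of all SOX17 peaks held one, and to 3 and 3 with 1 SOX mismatch, where 19.9% and 18.5% did. Shared regions were 2 to 4 and SOX sites 14 and 8 under the other settings. Outside repeats the highest SOX17 percentile of SALL1 fell from 94.1 to 78.8, and SALL4 had no SOX17 peak. No paired analysis was possible because the merged lists give no separate libraries, and leaving out replicates was not run for the same reason. Sites too weak to be called cannot be seen at the unknown depth of these libraries.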
